A study of Mus musculus with 33 samples.

Results

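Integrins are the cell surface receptors that hold cells to the extracellular matrix, and laminins are cross-shaped proteins of the basement membrane to which a subset of integrins binds. All genes of the deposited table whose symbol is that of an integrin alpha or beta chain or of a laminin chain were taken, leaving out Itgbl1 and the Itgb1bp genes, and this gave 39 of 37973 genes: 18 integrin alpha chains, 9 integrin beta chains, 11 laminin chains and Itgb3bp. The last carries an integrin name because its product was first found bound to an integrin tail, but it is a centromere protein and no integrin chain, and it is counted apart. Expression was measured by RNA-seq of polyA RNA in mouse embryonic fibroblasts (MEF) that carried a doxycycline-inducible OSKM cassette (Pou5f1, Sox2, Klf4 and Myc in the Col1a1 locus), the rtTA transactivator in Rosa26 and an Oct4-GFP reporter, each heterozygous. All samples list doxycycline in the medium. In the Dppa2/4 arm the cells were made to express Dppa2 and Dppa4, DNA-binding proteins of early embryos and germ cells (primary cells were transduced with lentivirus), and cells of the control arm carried a control overexpression. Cells were sorted on days 2, 4, 8, 11 and 14 by the fibroblast antigen Thy1, by SSEA1, a carbohydrate antigen gained during reprogramming, and by GFP. Titles of the Thy1 and SSEA1 gates name GFP-negative cells on days 8, 11 and 14 and no GFP gate on days 2 and 4. The labels do not say from how many embryos or cultures the cells came. Each combination of arm, day and gate was 1 library, so that OSKM cells gave 17 Dppa2/4 and 13 control libraries, beside 2 of day 2 named rtTA-MEF, whose listed genotype has no OSKM cassette. The labels of the rtTA-MEF pair disagree, since their titles give day 2 while their descriptions give day 1 and name OSKM cells, and their values are given here under the titles. There were no replicates of a condition. Between the arms, p-values therefore measure the spread of a difference over days and gates. Between gates they measure its spread over arms and days, and for change per day the scatter of single libraries about a line. The labels do not show that these libraries came from independent cultures.

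Each integrin is a pair of 1 alpha and 1 beta chain, and the pair sets the ligand. Itgb1 pairs with most alpha chains, among them the collagen receptors (Itga1, Itga2, Itga10, Itga11), the laminin receptors (Itga3, Itga6, Itga7) and the fibronectin receptor Itga5, while Itgav with Itgb3, Itgb5, Itgb6 or Itgb8 binds vitronectin, fibronectin or latent TGF-beta through the RGD sequence, and Itga6 with Itgb4 anchors hemidesmosomes. Each laminin is a trimer of an alpha, a beta and a gamma chain: Lama1 and Lama5 with Lamb1 and Lamc1 are known from the basement membranes of the early mouse embryo, Lama2 and Lama4 from mesenchymal tissues, muscle and vessels, and Lama3 and Lamb3 from skin epithelium. Fibroblasts lose mesenchymal adhesion and pass through an epithelial state when they are reprogrammed, and pluripotent cells adhere to laminin by way of Itga6 and Itgb1.

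Promoter windows of 300 bases around the start, most of them upstream of it, were available in RefSeq (GRCm38.p6) for 25 of the 39 members, some with a second start, 28 windows in all. They were searched on both strands for TGANTCA, the site of AP-1, for CACCTG, the E-box bound by Snai and Zeb repressors, and for ATGCAAAT, the octamer of Pou5f1, none of which overlaps another. TGANTCA was found in 3 of the 28 windows (Itga3, Itga9 and Itgax), against 7.81% of all 32851 windows of the table. CACCTG was found in 8 windows, those of Itga3, Itga9, Itga11, Itgb5, Itgb6, Itgb8, Lama5 and Lamb3, against 20.2% of all windows, and ATGCAAAT in 0, against 1.74%. As examples, the windows of Itga11, Itgb5 and Lama5 are shown, 3 members with CACCTG that were called lower in a comparison of gates below. Itga3 and Itgb8 held it and were called lower in such a comparison too, while Itga9, with 2 copies, was called higher in GFP+ cells. The motif is in capitals as read in the gene's direction (CAGGTG is its reverse complement). Below them is the window of Itgb1, the member with the highest median FPKM, in which no motif was found. Itga11 is at chr9:62677605-62677904 (+), Itgb5 at chr16:33829415-33829714 (+), Lama5 at chr2:180225810-180226109 (-) and Itgb1 at chr8:128685404-128685703 (+). These letters are a description of the sequence and were not tested as sites.
Itga11: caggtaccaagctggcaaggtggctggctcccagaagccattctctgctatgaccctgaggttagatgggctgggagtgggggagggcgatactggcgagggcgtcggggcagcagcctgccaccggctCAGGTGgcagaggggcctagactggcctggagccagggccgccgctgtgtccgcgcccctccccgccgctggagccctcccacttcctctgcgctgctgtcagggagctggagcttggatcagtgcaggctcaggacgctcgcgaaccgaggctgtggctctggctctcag
Itgb5: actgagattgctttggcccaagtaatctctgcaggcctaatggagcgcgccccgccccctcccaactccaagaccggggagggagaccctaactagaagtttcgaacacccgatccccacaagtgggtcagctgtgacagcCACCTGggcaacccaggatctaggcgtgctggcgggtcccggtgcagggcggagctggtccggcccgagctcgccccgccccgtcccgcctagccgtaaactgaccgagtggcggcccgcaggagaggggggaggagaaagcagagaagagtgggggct
Lama5: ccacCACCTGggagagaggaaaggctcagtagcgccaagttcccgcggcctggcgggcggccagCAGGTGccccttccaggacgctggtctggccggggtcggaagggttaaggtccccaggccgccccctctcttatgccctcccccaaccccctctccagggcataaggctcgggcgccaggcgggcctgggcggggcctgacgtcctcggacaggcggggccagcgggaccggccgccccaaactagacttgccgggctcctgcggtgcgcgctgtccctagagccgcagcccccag
Itgb1: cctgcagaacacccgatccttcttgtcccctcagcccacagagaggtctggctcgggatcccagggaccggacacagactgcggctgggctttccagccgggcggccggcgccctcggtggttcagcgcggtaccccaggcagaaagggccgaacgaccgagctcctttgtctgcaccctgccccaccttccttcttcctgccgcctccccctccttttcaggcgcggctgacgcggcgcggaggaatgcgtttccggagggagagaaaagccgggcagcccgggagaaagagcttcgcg

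Depth, implied by the smallest steps of the values and given in units of 1e+06 fragments, was 21.4 to 42.7 in OSKM libraries, with a median of 29.5 in the Dppa2/4 arm and 30.9 in the control arm, and 14.1 and 16.2 in the rtTA-MEF libraries. The library labelled Dppa2/4 day 4 Thy1+SSEA1- had 0.354 FPKM of Dppa2 and 0.409 FPKM of Dppa4, against 0.319 and 0.141 FPKM in the control library of that day and gate, so its values go against its label, and it is named so throughout. In Thy1+SSEA1- and Thy1-SSEA1- gates the other Dppa2/4 libraries had 81.8 to 599 FPKM of Dppa2 and control libraries 0.149 to 0.916 FPKM. In GFP+ cells Dppa2 was 49.3 to 61.5 FPKM with Dppa2/4 and 45.4 to 66.1 FPKM in control cells. Both day 2 Thy1-SSEA1- libraries had Thy1 RNA at the level of Thy1+SSEA1- cells, 230 FPKM in Dppa2/4 and 164 FPKM in control cells, against 195 and 241 FPKM in Thy1+SSEA1- cells of that day. Summed over the 7 fibroblast markers, levels were 567 to 2206 FPKM in the Thy1+SSEA1- gate, 598 to 5224 FPKM in the Thy1-SSEA1- gate, 65.2 to 371 FPKM after SSEA1 was gained and 24.5 to 75.3 FPKM in GFP+ cells. The rtTA-MEF libraries, sourced as fibroblasts, had 3523 FPKM of these markers in Dppa2/4 and 2649 in control cells. Pou5f1 was 1116 FPKM in the Dppa2/4 and 122 FPKM in the control rtTA-MEF library, which goes against a genotype with no OSKM cassette.

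Expression of the family was led by a few chains. Over the 30 OSKM libraries, Itgb1 was highest, with a median of 256 FPKM (fragments per kilobase of transcript scaled to depth, a level per length), followed by Itgb5 with 198, Lamc1 with 136, Lama4 with 87.3, Lamb1 with 81.1, Itgav with 63.9, Itga6 with 42.5, Lama5 with 25.3 and Itga5 with 18.8 FPKM. Lamc1, the gamma chain that most laminins share, was the steadiest of these, with 95.4 to 188 FPKM. Lama4 moved furthest, between 183 FPKM in the library labelled Dppa2/4 day 4 Thy1+SSEA1- and 1.75 FPKM in control day 14 GFP+ cells. Of the 39 members, 31 reached 1 FPKM in at least 2 OSKM libraries, and 8 did not: Itgad, Itgae, Itgam, Itgax, Itgb2, Itgb2l, Lamb3 and Lamc3. Itgb2l was listed at 0 in all 30 libraries. Of these 8, 6 are integrin chains of white blood cells.

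**Figure D1:**
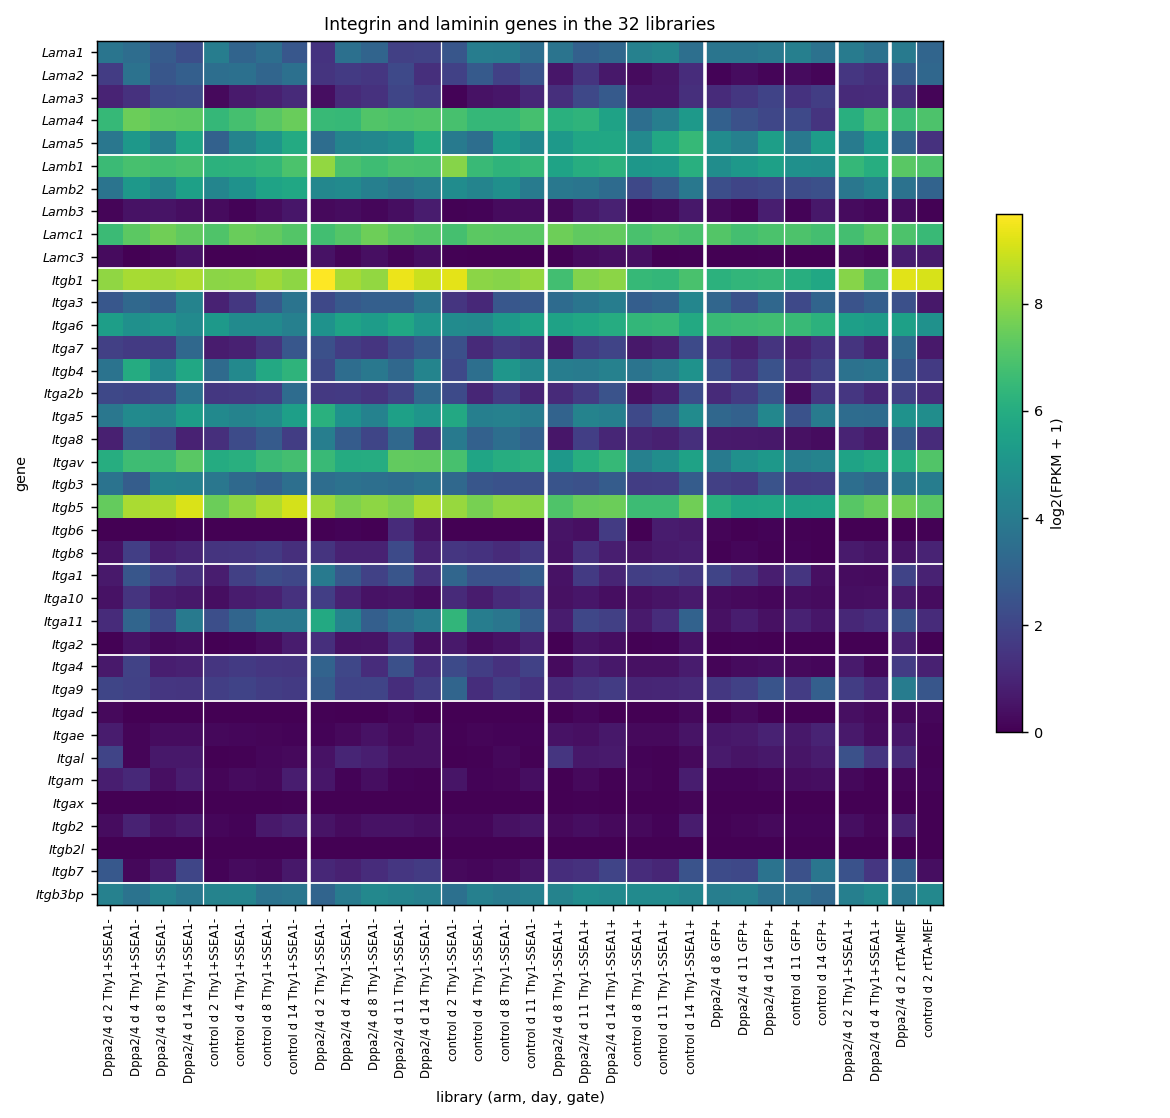
Level of 38 of the 39 members as log2(FPKM + 1), colour, in the 32 libraries. Columns run by gate from Thy1+SSEA1- to GFP+, then the Thy1+SSEA1+ and rtTA-MEF libraries, with the Dppa2/4 arm left of the control arm within a gate (thick lines part gates, thin lines arms), and rows run by role. Itgb1, Itgb5, Lamc1 and Lamb1 are bright throughout, while Lama4 and Itgb4 darken in the GFP+ columns.

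The epithelial laminin chains Lama3 and Lamb3 were low. Lama3 was 0.0809 to 5.76 FPKM over the 30 libraries and Lamb3 0.0287 to 0.840 FPKM. The other beta chains were 26.1 to 272 FPKM (Lamb1) and 3.10 to 53.6 FPKM (Lamb2). The keratinocyte markers Krt5, Krt14, Trp63 and Krt1 together reached at most 2.68 FPKM.

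The comparison of the arms asked which chains added Dppa2/4 changed in cells of the same day and gate. Lama3 and the widely expressed chains Itgb1, Itgav and Lamb1 rose with Dppa2/4, and Lama1 fell. Differences were taken within 13 pairs of libraries of the same day and gate (strata), on the log2(FPKM + 1) scale, which understates changes of low genes, and a member was called when limma's p-value, with Benjamini-Hochberg adjustment over 16835 genes, was at most 0.05. In day 4 Thy1+SSEA1- and in GFP+ cells of days 11 and 14, Dppa2 was at like levels in both arms. It was 0.354 against 0.319 FPKM, 61.5 against 66.1 FPKM and 54.0 against 45.4 FPKM (Dppa2/4 against control). Counts of strata with the same sign include these strata. Of the 31 members tested, 9 rose, 1 fell and 21 did not pass. Over all genes tested, 15.6% were higher and 7.75% lower. The median difference was 0.13 over the members and 0.03 over all genes. The values of 0 of 31 members lay wholly apart between the arms, where 0.00594% of all genes tested did so with Dppa2/4 higher and 0% with Dppa2/4 lower. With no stratum block, Lama3 and Itgal rose and 0 members fell.

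Among laminins, Lama3 (chromosome 18) had 0.299, 1.96 and 5.76 FPKM as its lowest, median and highest values in Dppa2/4 cells and 0.0809, 0.631 and 2.41 FPKM in control cells. The difference was 0.81 (SE 0.12, adjusted p = 0.00102), with the same sign in 13 of 13 strata. Lamb3 stayed too low to be tested.

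Lamb1 had 34.4, 101 and 272 FPKM in Dppa2/4 cells against 26.3, 76.3 and 240 FPKM in control cells (lowest, median, highest), and was higher by 0.39 (SE 0.07, adjusted p = 0.00214, 12 of 13 strata). Its usual partner Lamc1 did not pass, at 0.10 (SE 0.08, adjusted p = 0.419), with means of 147 ± 31.0 FPKM in Dppa2/4 and 135 ± 19.9 FPKM in control cells (SD, n = 13 libraries each).

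Lama1 (ENSMUSG00000032796, chromosome 17, 67697259 to 67822647), the alpha chain of the first embryonic basement membranes, was the 1 member called lower. It had 1.66, 8.47 and 14.0 FPKM in Dppa2/4 cells and 4.96, 11.6 and 21.0 FPKM in control cells (lowest, median, highest). The difference was -0.61 (SE 0.16, adjusted p = 0.0132), and 11 of 13 strata were lower. The pairs lay furthest apart on day 11 and day 2 among Thy1- cells: 2.56 FPKM in Dppa2/4 against 10.3 FPKM in control Thy1-SSEA1- cells of day 11, 6.92 against 21.0 FPKM in Thy1-SSEA1+ cells of day 11, and 1.66 against 4.96 FPKM in Thy1-SSEA1- cells of day 2. The strata that went the other way were day 4 Thy1+SSEA1-, whose library labelled Dppa2/4 had Dppa2 at 0.354 FPKM, with 9.88 against 7.80 FPKM, and day 14 GFP+ with 14.0 against 11.6 FPKM. Without day 8 the difference was -0.56 (adjusted p = 0.0749) and without day 11 -0.43 (adjusted p = 0.0725), so the call was lost in both cases. Leaving out any 1 of the 13 strata kept it. Lama5, which replaces Lama1 in later development, had means of 30.5 ± 15.6 FPKM in Dppa2/4 and 32.5 ± 23.4 FPKM in control cells (SD, n = 13 libraries each), and Lama2, Lama4 and Lamb2 did not pass either (adjusted p of 0.0925 to 0.867 for these 4 laminins).

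Of the integrins, Itgb1 (ENSMUSG00000025809, chromosome 8, 128685654 to 128733200) was higher in all 13 strata. Its lowest, median and highest values were 82.2, 277 and 820 FPKM in Dppa2/4 cells and 52.8, 254 and 615 FPKM in control cells. The difference was 0.53 (SE 0.12, adjusted p = 0.00603). In Thy1-SSEA1+ cells of days 8, 11 and 14 it was 107, 226 and 253 FPKM with Dppa2/4 and 89.4, 85.0 and 119 FPKM in control cells.

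Of the 8 RGD receptor chains tested, 3 rose. Itgav (ENSMUSG00000027087, chromosome 2, 83724397 to 83806916) had 27.9, 65.5 and 163 FPKM in Dppa2/4 cells and 16.4, 60.5 and 115 FPKM in control cells (lowest, median, highest), higher by 0.53 (SE 0.13, adjusted p = 0.0100) in 11 of 13 strata. Its partner Itgb3 was higher by 0.53 (SE 0.15, adjusted p = 0.0217, 9 of 13 strata), with means of 9.19 ± 5.26 FPKM in Dppa2/4 and 5.99 ± 3.54 FPKM in control cells, whereas its more abundant partner Itgb5 did not pass, with 234 ± 139 FPKM in Dppa2/4 and 218 ± 136 FPKM in control cells (0.13, SE 0.07, adjusted p = 0.205). Itga2b, known from platelets as the partner of Itgb3, was higher by 0.50 (SE 0.14, adjusted p = 0.0193), with 3.49 ± 2.77 FPKM in Dppa2/4 and 2.38 ± 2.47 FPKM in control cells (SD, n = 13 libraries each). Of the 5 platelet markers, Gp9 and Pf4 were at most 0.0901 and 0.359 FPKM in any OSKM library, Gp1ba and Gp1bb at most 1.25 and 2.40 FPKM, and Ppbp 0.0310 to 19.0 FPKM. Of the 2 that could be tested, 0 passed between the arms. Itgav, Itgb3 and Itga2b lost the call when day 11 was left out (0.37, 0.53 and 0.33, with adjusted p of 0.0795, 0.0755 and 0.149), and each also did without day 14; Itgb3 did without day 8 as well (0.36, adjusted p = 0.137). Itga5, the fibronectin receptor, did not pass at 0.37 (SE 0.17, adjusted p = 0.126), with 25.8 ± 17.5 FPKM in Dppa2/4 and 20.8 ± 14.9 FPKM in control cells.

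Of the 4 laminin receptor chains, Itga3 rose by 0.63 (SE 0.17, adjusted p = 0.0147, 12 of 13 strata). It was 5.11, 8.55, 6.93 and 19.3 FPKM in Dppa2/4 Thy1+SSEA1- cells of days 2, 4, 8 and 14 and 0.900, 1.95, 5.46 and 12.1 FPKM in control cells. The 8.55 FPKM is that of the library labelled Dppa2/4 day 4, whose Dppa2 goes against its label. Itga6 and Itgb4 did not pass, at 0.15 (SE 0.13, adjusted p = 0.411) and -0.17 (SE 0.20, adjusted p = 0.564), and Itga7 did not at 0.34 (SE 0.12, adjusted p = 0.0567). None of the 4 collagen receptor chains passed, nor did Itga4 and Itga9.

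Itgal, the alpha chain of a T cell and macrophage integrin, was at a low level. It reached 1 FPKM in 2 libraries of the Dppa2/4 arm and in 0 of the control arm, so it entered the test through the arm where it is high and had to differ, and its values are a description. It had 0.0831, 0.544 and 2.94 FPKM as its lowest, median and highest values in Dppa2/4 cells and 0.0178, 0.0651 and 0.662 FPKM in control cells, a difference of 0.58 (SE 0.15, adjusted p = 0.0146, 11 of 13 strata). The highest value of the 13 Dppa2/4 libraries was on day 2 in Thy1+SSEA1- cells, with 2.94 FPKM against 0.0178 FPKM in control cells of that gate. Its beta partner Itgb2 was 0.0446 to 0.887 FPKM over the 30 OSKM libraries. Itgb7, another beta chain of lymphocytes, was 5.37 FPKM in that day 2 library and 0.0601 FPKM in its control, but over the strata it did not pass (0.56, SE 0.22, adjusted p = 0.0751). Of the 8 leukocyte markers 3 could be tested, and Cd68 was higher with Dppa2/4. The defining marker Ptprc was at most 0.155 FPKM and Cd3e had a median of 0, while Laptm5 was 2.22 to 93.5 FPKM and Lyz2 0 to 37.5 FPKM over the 30 libraries. Their part in the values of Itgal was not tested. Without the day 2 Thy1+SSEA1- or the day 8 Thy1-SSEA1+ stratum, the strata that hold these 2 libraries, Itgal left the test, which then held 30 members.

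**Figure D2:**
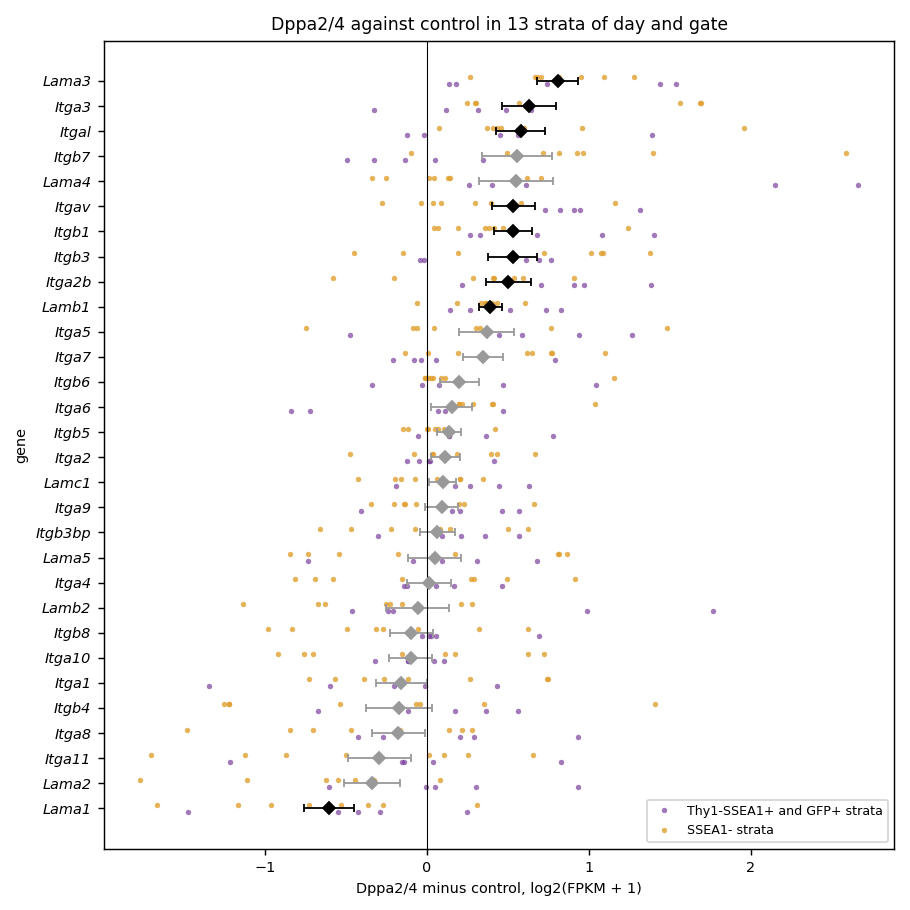
Difference of Dppa2/4 minus control on the log2(FPKM + 1) scale for 30 of the 31 members tested. Small points are the 13 strata (purple, Thy1-SSEA1+ and GFP+; yellow, SSEA1- gates), diamonds with bars the mean and its SE, black where the adjusted p was at most 0.05 and grey otherwise. All points of Lama3 and Itgb1 lie above 0, and 11 of 13 points of Lama1 lie below it.

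Some genes that work with integrins were called between the arms, where 15.6% of all genes tested were higher and 7.75% lower. Among 23 activators and adaptors tested, 1 was higher and 3 were lower with Dppa2/4: Pxn, the scaffold paxillin, at 0.57, and Ptk2b, a focal adhesion type kinase, at -0.88, Tns1, which links integrin tails to actin, at -0.53, and Fblim1 at -0.33. The tetraspanins Cd151 (0.53) and Cd9 (0.44) were the 2 of 6 that passed, both higher. Of 12 basement membrane genes, Nid1, which ties laminin to collagen (0.76), the proteoglycan Agrn (0.79) and the laminin receptor Bcam (0.91) were higher and Col4a6 (-0.53) was lower. Of 9 RGD ligands, Npnt (0.82), Tgfb1 (0.51) and Ltbp1 (0.35) were higher and 0 were lower. The median difference of these 4 lists was -0.06, 0.13, 0.06 and 0.30, beside 0.03 over all genes. Of 3 hemidesmosome genes tested, the plakin Dst (0.41) and Cd151 were higher.

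Some markers of cell state moved with the arms too. Of 6 epithelial markers 5 were higher with Dppa2/4, Krt18 by 1.77 and Cldn4 by 1.38. The other epithelial marker did not pass and went the other way, lower with Dppa2/4 in SSEA1+ or GFP+ and in SSEA1- strata. Of 7 fibroblast markers 3 were lower, Lum by -1.15 and Col1a1 by -0.79. Of 6 pluripotent markers 0 passed, with a median difference of -0.23. Summed epithelial markers were 51.8 to 318 FPKM in Dppa2/4 and 12.9 to 59.3 FPKM in control cells of the Thy1+SSEA1- gate, and summed fibroblast markers 567 to 1609 FPKM in Dppa2/4 and 1787 to 2206 FPKM in control cells of that gate. The 51.8 and 1609 FPKM are those of the library labelled Dppa2/4 day 4. The part of these markers in the differences of the integrins and laminins was not tested. In sorted bulk libraries, fewer cells of a type and less RNA per cell cannot be told apart.

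Whether the effect of Dppa2/4 differed between the 5 strata of Thy1-SSEA1+ or GFP+ cells and the 8 strata of SSEA1- cells was tested with an interaction term, and 0 of 31 members passed in either direction by limma, while 5 had an unadjusted p below 0.05. Over all genes, 0.511% were called higher and 0.505% lower. Itgav came closest: its effect was 0.94 in SSEA1+ or GFP+ strata and 0.28 in SSEA1- strata, a difference of 0.66 (SE 0.21, adjusted p = 0.124), and without the day 11 Thy1-SSEA1- stratum it was 0.79 (adjusted p = 0.0375). For Lama4 the effects were 1.22 and 0.13 (difference 1.08, SE 0.38, adjusted p = 0.157), and for Itgb7 -0.11 and 0.98 (difference -1.09, SE 0.35, adjusted p = 0.131). Lama4 was 70.4, 77.2 and 47.4 FPKM in Dppa2/4 and 10.3, 16.7 and 35.7 FPKM in control Thy1-SSEA1+ cells on days 8, 11 and 14, a subset that was not tested on its own. The SSEA1+ and GFP+ strata are all of day 8 or later, and with days 8 to 14 alone 0 members passed. Both classes hold strata with Dppa2 at like levels in the arms: GFP+ of days 11 and 14, and day 4 Thy1+SSEA1-.

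Sorted gates of the same arm and day were compared next, as steps along reprogramming. In the step that loses Thy1, Thy1-SSEA1- against Thy1+SSEA1- cells (7 pairs, 15473 genes tested), 0 of 28 members passed in either direction, and 5 had an unadjusted p below 0.05. Over all genes 0.0129% were higher and 0.0129% lower. The hemidesmosome chain Itgb4 and the muscle laminin chain Lama2 were lower in 7 of 7 pairs, at -1.32 (SE 0.21) and -1.25 (SE 0.21), each with an adjusted p of 0.0942. Itgb4 was 13.3 ± 10.4 FPKM in Thy1-SSEA1- and 34.0 ± 22.3 FPKM in Thy1+SSEA1- cells, and Lama2 2.61 ± 1.46 and 7.86 ± 3.43 FPKM (SD, n = 7 libraries each). Without day 2, whose Thy1-SSEA1- libraries kept Thy1 RNA, Lama2 passed and was lower. On day 2 the values of a collagen and a fibronectin receptor lay far apart between the gates: Itga11 was 58.2 FPKM in Dppa2/4 and 82.8 FPKM in control Thy1-SSEA1- cells, against 1.30 and 3.99 FPKM in the Thy1+SSEA1- cells of the same arms, and Itga5 was 70.6 and 57.0 FPKM against 13.3 and 23.1 FPKM.

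The step that gains SSEA1 set Thy1-SSEA1+ against Thy1-SSEA1- cells in 5 pairs of the same arm and day. Receptors for fibronectin, vitronectin and collagen and the mesenchymal laminin chains fell, and Lama1 rose. Of 29 members tested among 15249 genes, 14 were lower, 1 was higher and 14 did not pass. Over all genes 12.4% were lower and 9.55% higher. The median difference was -0.59 over the members and 0.01 over all genes. By role, 6 of 8 RGD receptor chains, 2 of 3 collagen receptor chains, Itgb1, Itga4, Itga7, Lama2, Lama4 and Lamb1 were lower. Values of 5 members did not overlap between the 2 gates, Itga4, Itga11, Itgb5, Lama4 and Lamb1, each lower in SSEA1+ cells, and over all genes tested 5.68% did so with SSEA1+ lower and 3.44% with SSEA1+ higher. Itga4 reached 1 FPKM in all 5 SSEA1- and in 0 of 5 SSEA1+ libraries, so it entered the test through the gate where it is high and had to differ.

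Itga11, a fibrillar collagen receptor of fibroblasts (ENSMUSG00000032243, chromosome 9, 62677826 to 62783982), fell most. It was 0.666, 3.13 and 2.59 FPKM in Dppa2/4 Thy1-SSEA1+ cells of days 8, 11 and 14 and 0.624 and 1.33 FPKM in control cells of days 8 and 11, against 6.58, 10.3, 14.8, 12.8 and 6.17 FPKM in the matched Thy1-SSEA1- libraries. The difference was -2.10 (SE 0.25, adjusted p = 0.00528). Every SSEA1+ value lay below every SSEA1- value.

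Itgb1 was 107, 226 and 253 FPKM in Dppa2/4 and 89.4 and 85.0 FPKM in control Thy1-SSEA1+ cells, against 277, 672, 480, 242 and 284 FPKM in the matched Thy1-SSEA1- libraries (-1.40, SE 0.14, adjusted p = 0.00464). Its fibronectin partner Itga5 fell by 1.27 (SE 0.20, adjusted p = 0.00925), to 10.9 ± 6.79 FPKM in SSEA1+ cells, against 25.8 ± 12.3 FPKM in SSEA1- cells (SD, n = 5 libraries each). Itgav fell by 1.24 (SE 0.18, adjusted p = 0.00710), to 46.7 ± 29.97 FPKM in SSEA1+ cells, against 104 ± 51.0 FPKM in SSEA1- cells. Itga8, the nephronectin receptor chain, fell by 1.59 (SE 0.30, adjusted p = 0.0138), with 1.17 ± 0.755 FPKM in SSEA1+ and 6.15 ± 3.63 FPKM in SSEA1- cells. Itga4, which binds VCAM and fibronectin, entered the test through the SSEA1- gate alone, so its values are a description. It had 0.460 ± 0.251 FPKM in SSEA1+ and 2.22 ± 1.19 FPKM in SSEA1- cells, a difference of -1.09 (SE 0.17). Itgb5, Itgb3, Itga1, Itga7 and Itgb8 fell by 0.59 to 1.03 each. Leaving out 1 pair took the call from Itga8 (without control day 11, adjusted p = 0.0513), from Itga7 without either day 8 pair, and from Itga1 and Itgb8 without any of 4 pairs (all but Dppa2/4 day 14).

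Laminin chains parted in this step. Lama4 fell by 1.72 (SE 0.37, adjusted p = 0.0212), to 44.4 ± 30.4 FPKM in SSEA1+ cells, against 116 ± 18.6 FPKM in SSEA1- cells (SD, n = 5 libraries each). Its call was lost without control day 8 (-1.41, adjusted p = 0.0526) or control day 11 (-1.48, adjusted p = 0.0674). Lama2 fell by 1.16 (SE 0.23, adjusted p = 0.0160; -1.06 and 0.0527 without control day 8) and Lamb1 by 1.00 (SE 0.13, adjusted p = 0.00621), while Lamc1 stayed at 151 ± 25.8 FPKM in SSEA1+ and 153 ± 19.0 FPKM in SSEA1- cells (-0.02, SE 0.12, adjusted p = 0.920). Lama1 was 12.1, 6.92 and 8.47 FPKM in Dppa2/4 and 18.1 and 21.0 FPKM in control SSEA1+ cells, against 7.69, 2.56, 2.75, 15.9 and 10.3 FPKM in the matched SSEA1- libraries. It was higher in each of the 5 pairs, by 0.84 (SE 0.20, adjusted p = 0.0277), but leaving out any of 4 of the 5 pairs (all but control day 8) took the call away. Lama5 did not pass, at 0.42 (SE 0.29, adjusted p = 0.333), and neither did the laminin receptors Itga6 (0.64, SE 0.20, adjusted p = 0.0629) and Itga3 (0.48, SE 0.14, adjusted p = 0.0521), which were higher in 4 and 5 of the 5 pairs. Without Dppa2/4 day 11, Itga6 was called higher (0.80, SE 0.19, adjusted p = 0.0417).

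**Figure D3:**
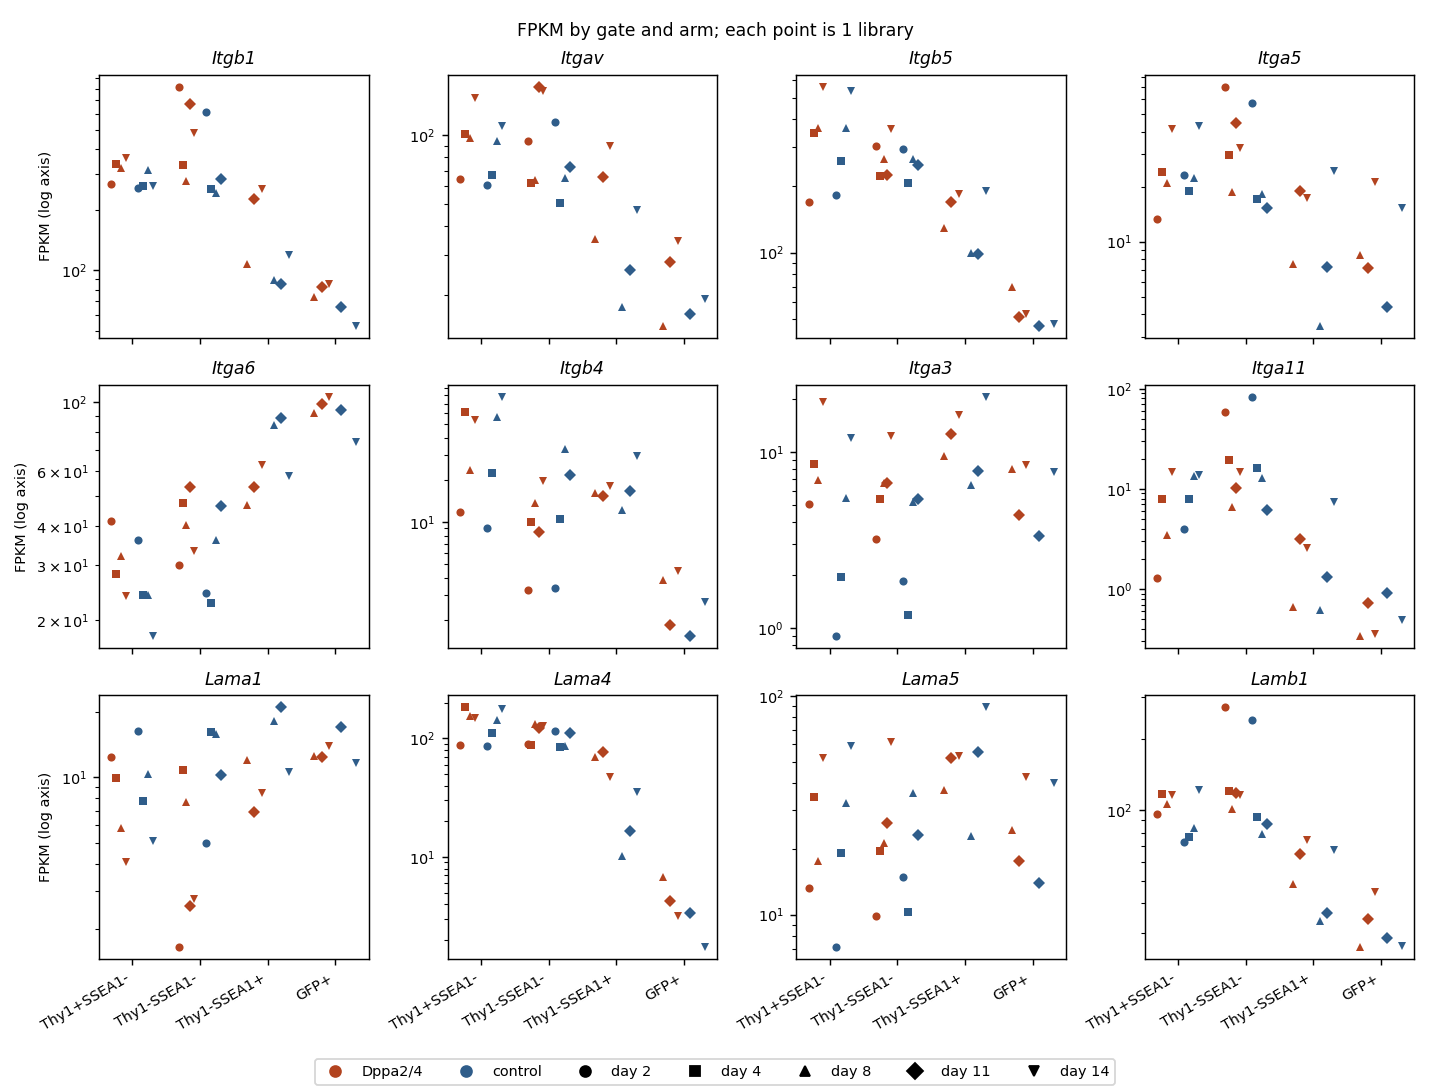
FPKM on a log axis of 12 members in the 4 gates from Thy1+SSEA1- to GFP+, with Dppa2/4 libraries (red) left of control libraries (blue) and the day as symbol; each point is 1 library. Itgb1, Itgav, Itgb5, Itga11 and Lama4 are lowest in GFP+ cells, Itga6 is highest there, and Itgb4 is lower in GFP+ than in Thy1-SSEA1+ libraries.

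GFP+ cells were then set against Thy1-SSEA1+ cells of the same arm and day, again in 5 pairs, 3 of Dppa2/4 (days 8, 11 and 14) and 2 of control cells (days 11 and 14). Most laminin chains, the hemidesmosome chain Itgb4 and the main RGD and beta chains fell, while Itga6, Itga9 and Itgb7 rose. Of 25 members tested among 15347 genes, 15 were lower, 3 were higher and 7 did not pass. Over all genes, 25.9% were lower and 19.5% higher. The median difference was -0.68 over the members and -0.06 over all genes. Of the laminin chains, Lama2, Lama4, Lama5, Lamb1, Lamb2 and Lamc1 were among those that fell, and Lama1 and Lama3 did not pass. Values of 7 members did not overlap between the 2 gates, and all of them were lower in GFP+ cells, among them Itgb3bp, Itgb4, Itgb5, Lama2, Lama4 and Lamb2. Over all genes tested, 11.1% did so with GFP+ lower and 6.54% with GFP+ higher. Lama2 and Itga11 reached 1 FPKM in 0 of 5 GFP+ libraries and in 2 and 4 of 5 Thy1-SSEA1+ libraries, so they entered the test through the gate where they are high and had to differ. Lama2 was at most 0.261 FPKM in GFP+ cells, against 1.77 FPKM in Dppa2/4 day 11 and 1.32 FPKM in control day 14 Thy1-SSEA1+ cells, and without either of these pairs it left the test. This comparison and the one before share Thy1-SSEA1+ libraries, so their differences are not independent.

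Lama4 (ENSMUSG00000019846, chromosome 10, 38965515 to 39110188) was 6.75, 4.25 and 3.19 FPKM in Dppa2/4 and 3.38 and 1.75 FPKM in control GFP+ cells, against 70.4, 77.2, 47.4, 16.7 and 35.7 FPKM in the matched Thy1-SSEA1+ libraries. The difference was -3.28 (SE 0.28, adjusted p = 0.00104). The gates were wholly apart. Lamb2 fell by 1.32 (SE 0.19, adjusted p = 0.00296), Lama5 by 1.09 (SE 0.24, adjusted p = 0.0126) and Lamb1 by 0.83 (SE 0.14, adjusted p = 0.00527). Lamc1 fell least of the called members, by 0.32 (SE 0.10, adjusted p = 0.0346), to 120 ± 11.1 FPKM in GFP+ cells, against 151 ± 25.9 FPKM in Thy1-SSEA1+ cells (SD, n = 5 libraries each), and leaving out any pair but control day 11 took its call away (adjusted p of 0.0514 to 0.104). Lama1 had 13.5 ± 2.15 FPKM in GFP+ cells beside 11.8 ± 5.51 FPKM in Thy1-SSEA1+ cells (0.26, SE 0.17, adjusted p = 0.251), and Lama5 had 27.7 ± 12.9 FPKM in GFP+ cells against 57.3 ± 19.0 FPKM.

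Itga6 (ENSMUSG00000027111, chromosome 2, 71745616 to 71858416) rose, while Itga3 and Itgb4, the other laminin receptor chains called, fell. Itga6 was 92.2, 98.5 and 104 FPKM in Dppa2/4 and 93.9 and 74.4 FPKM in control GFP+ cells, against 46.5, 53.3, 62.6, 88.6 and 58.0 FPKM in the matched Thy1-SSEA1+ libraries, higher in 5 of 5 pairs by 0.60 (SE 0.15, adjusted p = 0.0175). Leaving out the Dppa2/4 pair of day 11 or of day 14 took the call away (0.53 and 0.57, with adjusted p of 0.0609 and 0.0531). Its hemidesmosome partner Itgb4 was 3.87, 1.85 and 4.46 FPKM in Dppa2/4 and 1.53 and 2.70 FPKM in control GFP+ cells, against 16.0, 15.3, 18.1, 16.7 and 29.5 FPKM (-2.40, SE 0.22, adjusted p = 0.00112). Its other partner Itgb1 was 71.9 ± 13.2 FPKM in GFP+ cells and 158 ± 75.9 FPKM in Thy1-SSEA1+ cells (SD, n = 5 libraries each; -1.01, SE 0.20, adjusted p = 0.00840). In all 5 GFP+ libraries Itga6 stood above Itgb1, Itgb4 and every other integrin chain in FPKM. Itga3 fell by 0.95 (SE 0.18, adjusted p = 0.00757), to 6.38 ± 2.33 FPKM in GFP+ cells, against 13.4 ± 5.15 FPKM in Thy1-SSEA1+ cells.

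The RGD receptor chains Itgb5, Itgav and Itgb3 fell by 1.48 (SE 0.18, adjusted p = 0.00197), 1.13 (SE 0.12, adjusted p = 0.00154) and 0.56 (SE 0.16, adjusted p = 0.0319). The call of Itgb3 was lost without any pair but control day 11. Itgb5 was 53.6 ± 9.26 FPKM in GFP+ cells and 154 ± 39.1 FPKM in Thy1-SSEA1+ cells, and Itgav 22.5 ± 8.41 and 52.6 ± 25.4 FPKM (SD, n = 5 libraries each). Itga5 did not pass in this step (-0.42, SE 0.24, adjusted p = 0.187), with 11.3 ± 6.87 FPKM in GFP+ and 15.1 ± 7.51 FPKM in Thy1-SSEA1+ cells.

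Itgb7 and Itga9, chains with roles in lymphocytes and in binding tenascin and VCAM, rose, at low levels. Itgb7 was 3.58, 3.24 and 11.8 FPKM in Dppa2/4 and 4.31 and 13.04 FPKM in control GFP+ cells, against 1.42, 1.62, 2.99, 1.06 and 4.63 FPKM in the matched Thy1-SSEA1+ libraries (1.20, SE 0.17, adjusted p = 0.00285). Both arms had their highest values on day 14. Itga9 was 3.66 ± 1.93 FPKM in GFP+ and 1.55 ± 0.502 FPKM in Thy1-SSEA1+ cells (SD, n = 5 libraries each; 0.80, SE 0.23, adjusted p = 0.0295), and it was not called without Dppa2/4 day 11, Dppa2/4 day 14 or control day 11 (adjusted p of 0.0501 to 0.0723). Itga11 entered the test through the Thy1-SSEA1+ gate alone, so its values are a description. It had 0.337 to 0.921 FPKM in GFP+ and 0.666 to 7.34 FPKM in Thy1-SSEA1+ cells of these pairs (-1.15, SE 0.34). Its call was lost with no filter on low values and without Dppa2/4 day 11, Dppa2/4 day 14 or control day 14. Itga4 and Itgae, the usual partners of Itgb7, were at most 0.270 and 0.932 FPKM in GFP+ libraries. Of the leukocyte markers, Ptprc was at most 0.0165 FPKM and Cd3e 0.150 to 0.815 FPKM in GFP+ libraries, while Laptm5 was 44.6 to 76.4 FPKM and Cd68 11.0 to 58.8 FPKM, and their part in the change of Itgb7 was not tested. The centromere gene Itgb3bp fell by 0.75 (SE 0.16, adjusted p = 0.0102).

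**Figure D4:**
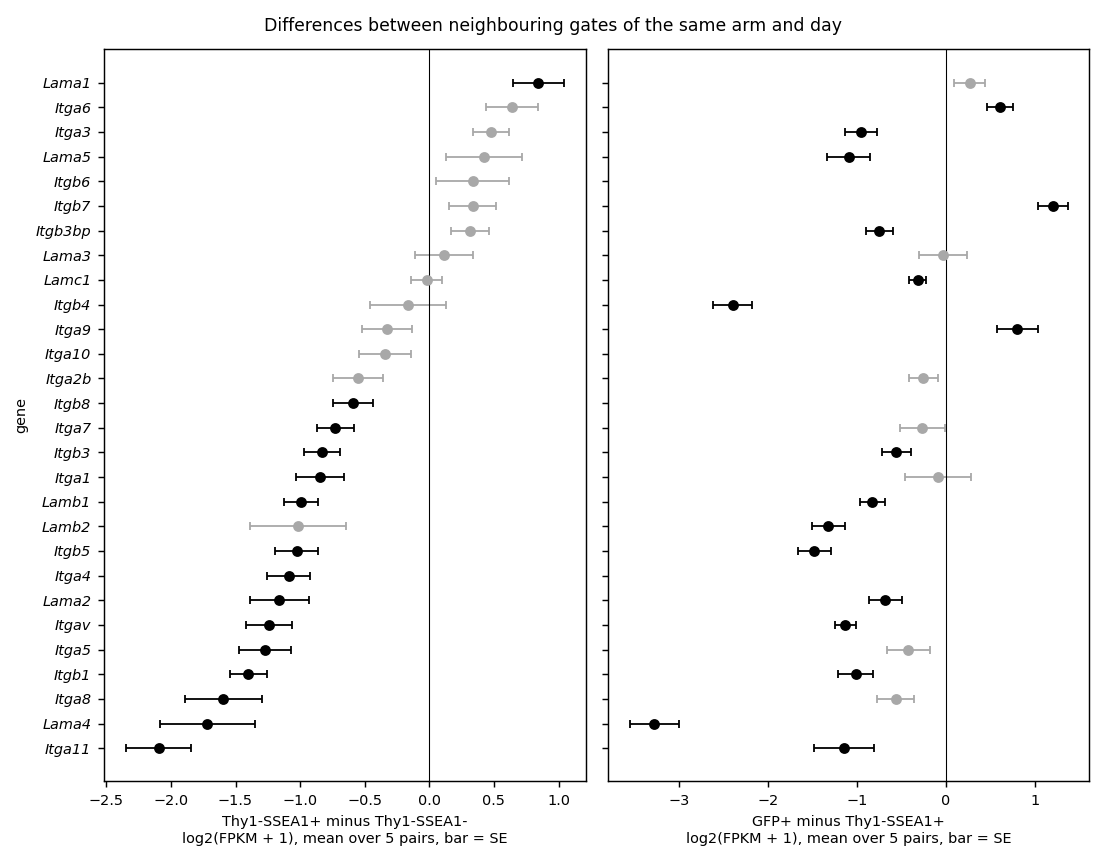
Mean difference on the log2(FPKM + 1) scale with its SE for the members shown, over 5 pairs of the same arm and day: Thy1-SSEA1+ minus Thy1-SSEA1- (left) and GFP+ minus Thy1-SSEA1+ (right). Black points had an adjusted p of at most 0.05, and a member not tested in a step has no point. Itgb4 is near 0 on the left and below -2 on the right.

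Genes around the integrins moved in these steps as well. In SSEA1+ against SSEA1- cells, 8 of 9 RGD ligands fell, among them Spp1 (osteopontin) at -2.92, Tnc (tenascin) at -2.70 and Fn1 (fibronectin) at -1.43, and the list's median was -1.83 against 0.01 over all genes. Of 22 activators and adaptors, 7 fell, among them Zyx at -1.502 and Ilk at -0.84, a pair of proteins of focal adhesions, and 1 rose, Parvb at 0.88. Of 12 basement membrane genes 4 fell (Sparc at -1.82, Nid1 at -1.24), and of 6 tetraspanins 3 fell (Tspan4 at -1.57). The medians of these 3 lists were -0.45, -0.92 and -0.92. In this step 12.4% of all genes tested were lower and 9.55% higher. In GFP+ against Thy1-SSEA1+ cells 11 of 22 adaptors fell, with Parva at -2.80 and Zyx at -1.70, and 3 rose, Parvb at 0.98, Fblim1 at 0.83 and Src at 0.55. All 6 tetraspanins fell, Tspan4 at -1.03 and Cd151 at -0.79 among them. Of 12 basement membrane genes, 7 fell, with the collagen chains Col4a2 at -2.63 and Col4a1 at -2.52, and Nid2 rose, at 1.18. Of 9 RGD ligands 6 fell, with Fbn1 at -2.36 and Npnt at -1.93. The medians of these 4 lists were -0.24, -0.92, -0.73 and -1.49, against -0.06 over all genes, of which 25.9% were lower and 19.5% higher in this step. The 7 fibroblast markers fell in both steps, the 6 pluripotent markers rose in both (Nanog by 2.74 and 1.31), and of 6 epithelial markers 4 rose in the SSEA1 step and 5 fell in the GFP step (Krt8 at -3.10, Krt18 at -2.16). The part of these markers in the changes of the integrins and laminins was not tested.

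Change over days was followed in the gates that span the course. From day 8 on these gates are titled GFP-negative, while titles of days 2 and 4 name no GFP gate. In Thy1+SSEA1- cells, which keep the fibroblast antigen, Itgb5 and Itga3 rose with time. Of 28 members, 2 rose and 0 fell among 14742 genes tested over 8 libraries, 14 members had an unadjusted p below 0.05, and 1.3% of all genes rose and 0.8% fell. Itgb5 was 168, 348, 364 and 561 FPKM in Dppa2/4 (348 in the library labelled Dppa2/4 day 4) and 183, 259, 363 and 535 FPKM in control cells on days 2, 4, 8 and 14, a rise of 0.12 per day (SE 0.02, adjusted p = 0.0490). Itga3, given above, rose by 0.18 per day (SE 0.03, adjusted p = 0.0490). Calls in this gate turned on single libraries. With the library labelled Dppa2/4 day 4 Thy1+SSEA1- left out, 12 members rose and 2 fell. Itgb5 and Itga3 were still among them, the others that rose included Lama5 by 0.19 per day (SE 0.03, adjusted p = 0.0135), Itga5 by 0.10 (adjusted p = 0.0216) and Itgav by 0.08 (adjusted p = 0.0149), and those that fell were Lama1 at -0.11 (SE 0.03, adjusted p = 0.0324) and Itga6 at -0.07 (SE 0.02, adjusted p = 0.0348). Leaving out any other library of this gate left 0 members called.

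In the 4 control libraries of this gate, which do not include the doubted one, Itgb4 was 9.08, 22.4, 56.4 and 78.1 FPKM on days 2, 4, 8 and 14 and Lama5 7.13, 19.2, 32.3 and 58.9 FPKM. In the Dppa2/4 arm Itgb4 was 11.8, 61.2, 23.6 and 53.5 FPKM, with the second value from the library labelled Dppa2/4 day 4. Itga6 ran the other way in this gate, with 41.5, 28.1, 31.99 and 23.8 FPKM in Dppa2/4 (28.1 in the library labelled Dppa2/4 day 4) and 36.1, 24.0, 24.0 and 17.7 FPKM in control cells.

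**Figure D5:**
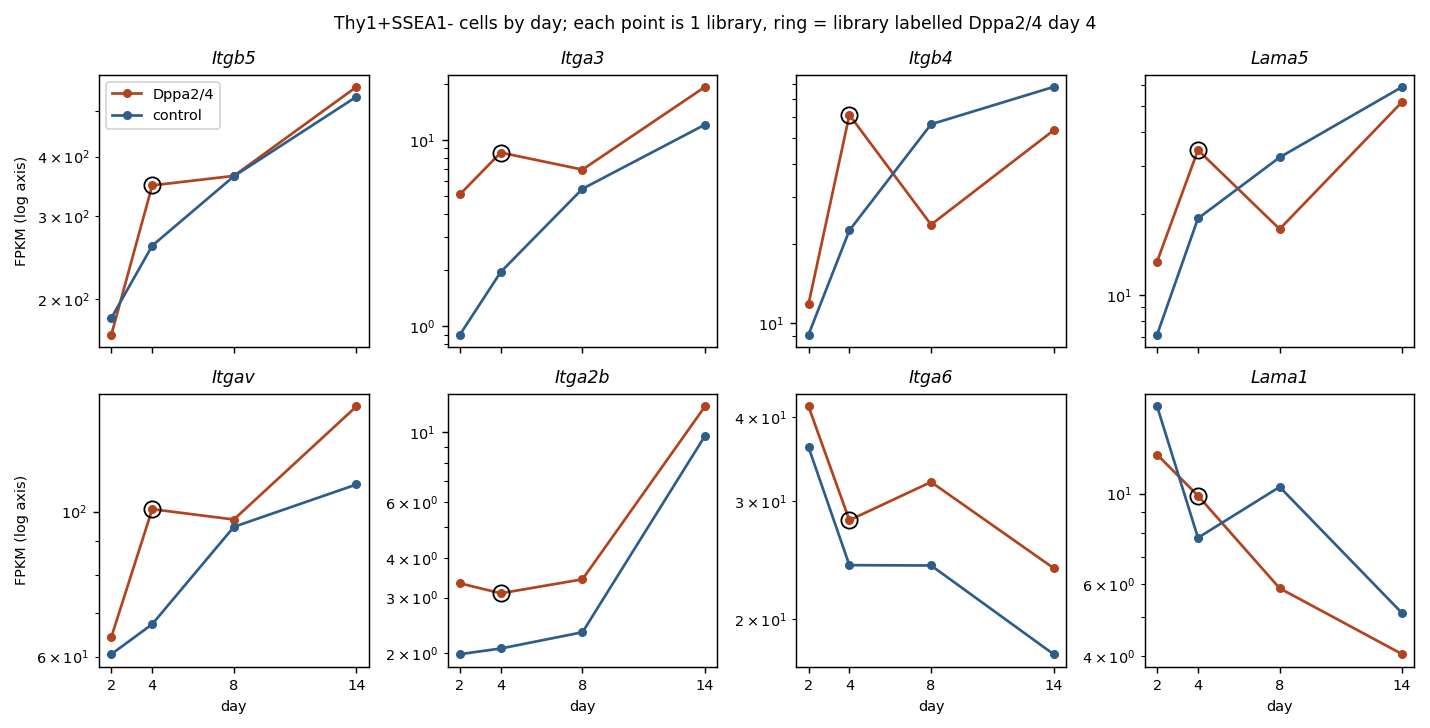
FPKM on a log axis of 8 members in Thy1+SSEA1- cells on days 2, 4, 8 and 14, Dppa2/4 in red and control in blue, 1 library per point; rings mark the library labelled Dppa2/4 day 4. Itgb5, Itga3, Itgav and Lama5 are higher on day 14 than on day 2 in both arms, and Itga6 and Lama1 are lower.

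In Thy1-SSEA1- cells (9 libraries, 14995 genes tested), Itga3 rose with time, by 0.13 per day (SE 0.03, adjusted p = 0.0492). Of 29 members, 2 rose and 0 fell, and 12 had an unadjusted p below 0.05. Over all genes 1.68% rose and 1.09% fell. The call of Itga3 was lost without day 2 and without any 1 of the 9 libraries. Lama5 did not pass at 0.16 per day (SE 0.04, adjusted p = 0.0543), and Itga11 at -0.21 (SE 0.07, adjusted p = 0.111) had its highest values in the day 2 libraries. Of the epithelial markers 5 of 6 rose per day in this gate and of the fibroblast markers 2 of 7 fell, and their part in the changes was not tested.

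A pair of Dppa2/4 libraries of Thy1+SSEA1+ cells and the rtTA-MEF libraries were not tested. Thy1+SSEA1+ cells of day 2 had 4.31 FPKM of Itgal, the highest of any library, and 4.47 FPKM of Itgb7, against 2.94 and 5.37 FPKM in Dppa2/4 Thy1+SSEA1- cells of that day. On day 4, Thy1+SSEA1+ cells had 138 FPKM of Itgb1, against 337 FPKM in the library labelled Dppa2/4 day 4 Thy1+SSEA1-. In rtTA-MEF cells Itgb1 was 609 FPKM with Dppa2/4 and 548 FPKM in control, Itgav 62.6 and 132, Lama3 1.44 and 0.0861, Itga7 8.67 and 0.582, Itga9 15.9 and 4.99, and Itgb7 6.49 and 0.300 FPKM. With 1 library a side these differences have no replicate check.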

How the data were processed

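RNA-seq libraries of reprogramming fibroblasts were quantified by the authors as FPKM per gene, deposited in 1 table. The submitters' processing notes name TopHat2, Cuffdiff and the build mm10; versions, annotation and strand setting are not given in the sources used here, so reads of overlapping or antisense genes cannot be told apart. Of 33 value columns 32 were used, and 1 matched no sample. The control day 11 Thy1+SSEA1- sample is not analysed here. The 2 columns that name no gate were taken as the rtTA-MEF libraries, since every other day 2 sample had its own. The control day 11 GFP+ library has a description naming another gate, and was used as titled.

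Genes with at least 1 FPKM in at least 2 libraries of a comparison were fitted as log2(FPKM + 1) with limma 3.58.1 (lmFit, eBayes with trend; R 4.3.3), two-sided, adjusted by Benjamini-Hochberg over all genes tested, threshold 0.05. Strata of day and gate, or arm and day, were blocks; arm was a term in slopes. Arms of a stratum deviated together (correlations of 0.209 to 0.757 over 13 strata), so strata pair the samples. Named in full are up to 8 called members per direction, plus Itga5, Itga6, Itgav, Itgb1, Lama1, Lama5, Lamb1 and Lamc1. The members and lists were chosen with earlier results of these data known; Itgal, Itgb7 and other members named outside this rule were chosen after their values were seen. Fits were tested on simulated data. Depth was read from 2001 genes of over 2000 bp. Coordinates are from GENCODE (GRCm38), promoters from RefSeq GRCm38.p6. Protein sequences were not used here. The values of 1 member and 1 marker are not reported here, though both are counted.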

Additional observations from a re-analysis of the deposited data

Results flagged for a closer look

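A pair of differences of single pairs stood far from the others of their comparison. In Thy1-SSEA1+ against Thy1-SSEA1- cells, Itga5 of control day 8 differed by -2.11 on the log2 scale, with 3.45 FPKM in SSEA1+ and 18.2 FPKM in SSEA1- cells, while the other 4 pairs lay between -1.21 and -0.87. In GFP+ against Thy1-SSEA1+ cells, Itgav of control day 11 differed by -0.62, with 16.4 FPKM in GFP+ and 25.7 FPKM in Thy1-SSEA1+ cells, while the other 4 pairs lay between -1.35 and -1.20. The GFP+ library of that pair is the one whose description names another gate. Of 33 sets of 5 pair differences examined, chance would place about 1 in 20 this far out.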

How the results depend on the processing

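Counts of members called moved with the processing as follows (higher and lower). For Dppa2/4 against control, 9 and 1 became 2 and 0 with no stratum block, and the lower count was 0 without day 8 and without day 11; higher was 6 without day 11 (Itga2b, Itgav and Itgb3 lost), 6 without day 14 (the same 3 lost), 7 without day 8 (Itgal and Itgb3 lost), 8 without day 2 (Itgal lost), 7 with quantile normalization (Itga2b and Itgal lost) and 6 at a mean of at least 5 FPKM, and adding the rtTA-MEF pair lost Itgav and gained Itgb7; leaving out 1 stratum gave 8 to 10 higher and 1 lower, and without the library labelled Dppa2/4 day 4 all 10 called members were kept. With no filter, and at a pseudocount of 0.1 FPKM, Dppa2/4 against control gave 10 higher and 1 lower. For Thy1-SSEA1- against Thy1+SSEA1-, 1 was lower without day 2. For Thy1-SSEA1+ against Thy1-SSEA1-, 1 and 14 became 0 and 6 with no pair block. Higher was 2 at a pseudocount of 0.1 FPKM, 2 with quantile normalization and 0 with no filter. Lower was 8 at a mean of at least 5 FPKM, 11 with no filter and 13 with quantile normalization. Leaving out 1 pair gave 0 to 1 higher and 9 to 14 lower. For GFP+ against Thy1-SSEA1+, higher was 1 at a mean of at least 5 FPKM and 1 with no pair block, and 1 to 3 on leaving out 1 pair, with 11 to 15 lower. Lower was 12 at a mean of at least 5 FPKM, 13 with no pair block, 13 with quantile normalization and 16 with no filter. The change per day in Thy1+SSEA1- cells (2 and 0) gave 0 higher with no filter or without day 2 and 1 with quantile normalization. At a mean of at least 5 FPKM it gave 3 higher and 1 lower. Leaving out 1 library gave 0 to 12 higher and 0 to 2 lower, the 12 and 2 without the library labelled Dppa2/4 day 4. In Thy1-SSEA1- cells (2 and 0) higher was 3 with quantile normalization and 1 at a pseudocount of 0.1 FPKM. It was 0 with no filter, at a mean of at least 5 FPKM or without day 2, and 0 to 1 on leaving out 1 library. For the interaction, leaving out 1 stratum gave 0 to 1 higher.

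Of 1296 values of members under alternatives, 122 lost their call, 15 gained one and 0 called values changed sign. A further 36 values that passed under neither setting changed sign, none larger than 0.43. A stricter filter removes low genes, such as Itgal, Itga2b and Lama3, from the test. The cause of the other changes was not tested. With 1 library per condition and FPKM without counts, counting error could not be set beside each value.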
